A study of Homo sapiens with 6 samples.

Results

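The genes described here are 10 genes of cell survival, 6 of the BCL2 family (BCL2, BCL2L1, MCL1, BAK1, BCL2L11 and BID) and 4 that encode inhibitor of apoptosis proteins, or IAPs (XIAP, BIRC2, BIRC3 and BIRC5). They were chosen by gene symbol, and all 10 were found among the 30618 genes of the count table. The RNA came from ARPE-19, a line of human retinal pigment epithelium, transfected with siRNA by lipofection and held at 50 mM glucose as a model of diabetic retinopathy. The NC group received a negative control siRNA and the siEIF1 group an siRNA against EIF1, a translation initiation factor, with 3 libraries from independent biological replicates in each group. All 6 libraries shared the high glucose, so the comparison is of the siRNAs within high glucose, and no library at normal glucose was analysed here. Each group rests on 1 cell line, and the knockdown samples here carry 1 siRNA label, so an effect of EIF1 loss and any other effect of that siRNA cannot be told apart.

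BCL2 family proteins decide whether the outer membrane of the mitochondrion stays intact. The anti-apoptotic proteins BCL2, BCL-XL (from BCL2L1) and MCL1 hold the pore-forming effectors BAK and BAX in check, while BH3-only proteins such as BIM (from BCL2L11) and BID release or activate the effectors. Once cytochrome c leaves the mitochondrion and caspases become active, XIAP can block the caspases directly, cIAP1 and cIAP2 (from BIRC2 and BIRC3) act as ubiquitin ligases in TNF receptor signalling, and survivin (from BIRC5) works mainly in the chromosomal passenger complex of dividing cells.

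EIF1 itself had an FPKM (fragments scaled by transcript length and by all mapped fragments of the library) between 281 and 294 in the NC libraries and between 22.7 and 24.3 in the siEIF1 libraries. The libraries held 26499929 to 31431479 counts, and every siEIF1 library was deeper than every NC library. No library was set aside, although siEIF1 replicates 1 and 3 differed from each other more than any other pair of replicates. Of 10 markers of the pigment epithelium tested, 3 rose past the test in edgeR and 0 fell: KRT18 (log2 fold change 0.25), KRT8 (0.24) and RLBP1 (1.55, adjusted p = 0.00102), the last at only 0.237 FPKM in the NC and 0.680 FPKM in the siEIF1 mean. Their part in the results was not tested. The summed level of the 9 markers with FPKM values of endothelial, blood, photoreceptor, neuronal and glial cells was 8.26 to 8.52 FPKM in the NC and 8.90 to 9.78 FPKM in the siEIF1 libraries, most of it from GLUL. RPE65, the defining visual cycle enzyme of this tissue, was not analysed here.

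The 10 genes covered a wide range of levels, and their order was the same in both groups. BCL2L1 was the highest with a mean of 76.9 ± 1.38 FPKM (SD, n = 3) in the NC group, followed by MCL1, BAK1, BIRC2, BID, XIAP, BCL2L11, BIRC5, BCL2 and, at 0.187 ± 0.00577 FPKM (SD, n = 3), BIRC3. The library values of neighbours in this order overlapped for BCL2L11 and BIRC5 in the NC group and for BID and XIAP in the siEIF1 group, and for no other neighbours.

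**Figure D1:**
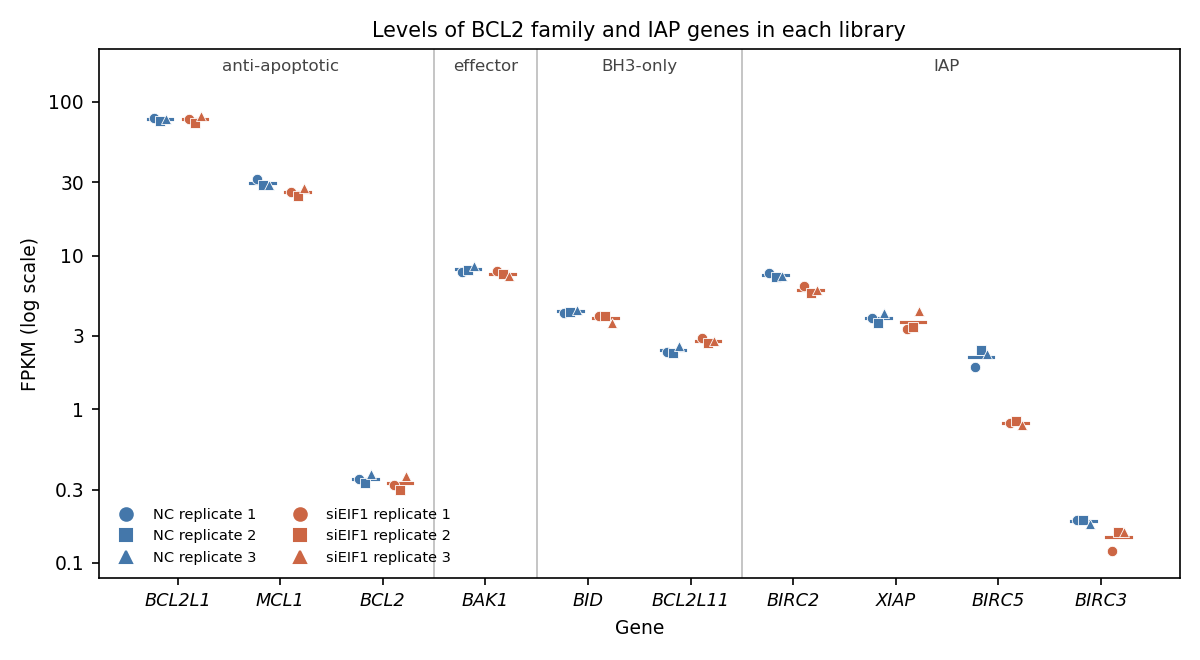
FPKM of the 10 genes (vertical log axis) in each of the 6 libraries, grouped by role, with a bar at the mean of each group (n = 3). BCL2L1 and MCL1 lie far above the other genes, BCL2 and BIRC3 lie below 0.4 FPKM, and BIRC5 shows the widest gap between the NC and siEIF1 libraries.

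In the comparison of siEIF1 with NC, all 10 genes passed the filter on low counts and 4 of them passed the test, at an adjusted p under 0.05 in edgeR's quasi-likelihood test after Benjamini-Hochberg adjustment, against 20.6% of the 16749 genes tested. BCL2L11 rose, which is 1 member against a background of 10.2% of genes higher, and MCL1, BIRC2 and BIRC5 fell, which is 3 members against a background of 10.4% of genes lower. BIRC5 alone also had a fold change beyond the limits of 2 and 0.5 that the study's methods set, a call that 1.71% of all tested genes received. In CPM (counts scaled to a common library size, with TMM factors), the groups did not overlap for 6 of the 10 genes, against 37.1% of all tested genes. The median log2 fold change of the 10 genes was -0.11, against 0.0033 over all tested genes. The p-values measure the spread among these 3 replicates a group. In bulk RNA, fewer cells of a kind and less RNA per cell cannot be told apart.

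**Figure D2:**
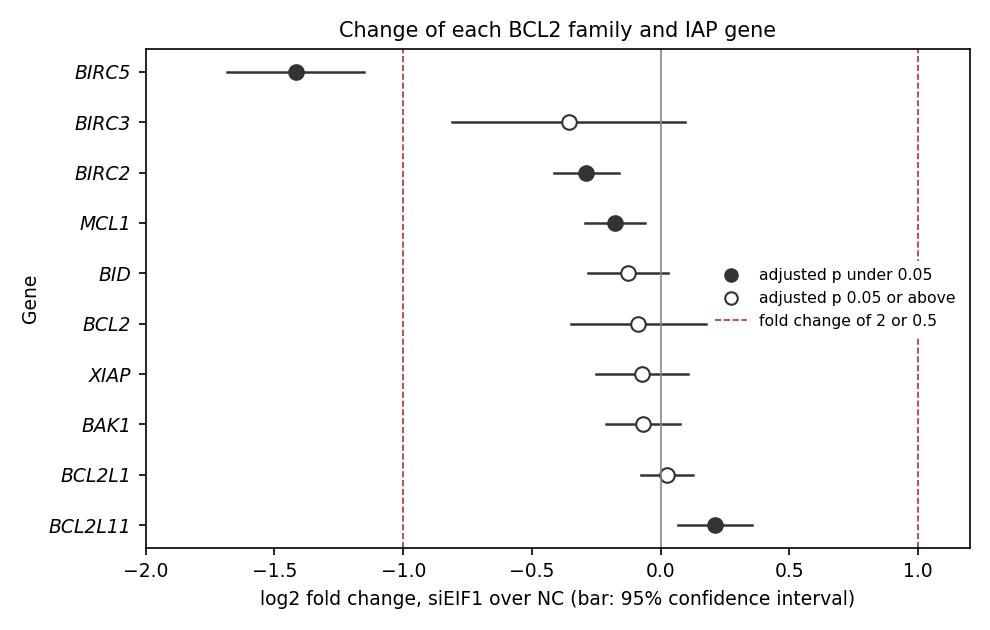
Log2 fold change of each gene, siEIF1 over NC (horizontal axis), with its 95% confidence interval from edgeR, filled where the adjusted p was under 0.05. Dashed lines mark fold changes of 2 and 0.5; only BIRC5, at -1.42, lies beyond one of them, and the interval of BIRC3, the gene with the fewest counts, is the widest.

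Among the anti-apoptotic genes, BCL2L1 supplied most of the transcript. BCL2L1 encodes BCL-XL, and lies on chromosome 20 (GRCh38, 31664452 to 31723989, reverse strand, 3 exons in the canonical transcript of GENCODE release 44). Its level was 78.1, 75.4 and 77.3 FPKM in NC replicates 1 to 3 and 77.2, 73.4 and 81.2 FPKM in siEIF1 replicates 1 to 3. The lowest and the highest value were both in the siEIF1 group, so the groups overlapped fully. BCL2L1 had a log2 fold change of 0.03 ± 0.047 (SE), with a 95% confidence interval of -0.08 to 0.13 and an adjusted p of 0.757 in edgeR's quasi-likelihood test. The exons of BCL2L1 share 1735 bases with those of the antisense RNA gene ABALON, which had a mean of 416 counts against 11480 for BCL2L1.

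MCL1 encodes a short-lived protein that guards the mitochondrion and that must be made continuously to be kept. The gene lies on chromosome 1 (150560895 to 150579738, reverse strand, 3 exons). Its level was 31.6, 28.7 and 28.8 FPKM in the NC libraries and 25.95, 24.2 and 27.7 FPKM in the siEIF1 libraries. Every siEIF1 library was below every NC library, with the highest siEIF1 value close to the lowest NC value. MCL1 fell by 0.18 on the log2 scale (SE 0.055, 95% confidence interval -0.30 to -0.06, adjusted p = 0.0342 in edgeR's quasi-likelihood test), to 88.4% of its NC level. This call depended on single libraries. The adjusted p was 0.137, 0.0557 and 0.0511 without NC replicates 1, 2 and 3, and 0.0638 and 0.148 without siEIF1 replicates 1 and 2, with a log2 fold change between -0.21 and -0.13 in all 6 of these fits. It was 0.0141 without siEIF1 replicate 3. ADAMTSL4, which lies on the opposite strand and shares 43 exon bases with MCL1, had a log2 fold change of -0.21 (adjusted p = 0.0428, edgeR) at a mean of 2711 counts, against 6124 for MCL1. On the same strand, ADAMTSL4-AS1 shares 328 exon bases with MCL1 and had a mean of 148 counts and a log2 fold change of -0.28 (adjusted p = 0.382, edgeR).

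BCL2, the founding gene of the family, was low beside its relatives. It lies on chromosome 18 (63123346 to 63320128, reverse strand, 3 exons). The NC libraries had 0.35, 0.33 and 0.38 FPKM and the siEIF1 libraries 0.32, 0.30 and 0.37 FPKM, from 139 to 169 counts a library. The groups overlapped, and the log2 fold change was -0.09 ± 0.121 (SE; 95% confidence interval -0.35 to 0.17; adjusted p = 0.673, edgeR).

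Summed over these 3 anti-apoptotic genes, the level was 107 ± 2.86 FPKM in the NC group and 104 ± 5.63 FPKM in the siEIF1 group (SD, n = 3), and the groups overlapped. BCL2L1 made up 70.9% to 72.6% of this sum in the NC libraries and 74.3% to 74.9% in the siEIF1 libraries. The share of MCL1 was 27.1% to 28.7% in the NC libraries and 24.7% to 25.3% in the siEIF1 libraries. The balance of the pair therefore differed by group in every library, with 2.47 to 2.68 FPKM of BCL2L1 for each FPKM of MCL1 in NC and 2.93 to 3.03 in siEIF1. BCL2 contributed less than 0.4% of the sum in every library.

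BAK1, which encodes the effector BAK, lies on chromosome 6 (33572547 to 33580293, reverse strand, 6 exons). Its level was 7.82, 8.0 and 8.54 FPKM in the NC libraries and 7.89, 7.58 and 7.40 FPKM in the siEIF1 libraries. The first siEIF1 library lay within the NC range and the other two lay below it. BAK1 had a log2 fold change of -0.07 ± 0.067 (SE; 95% confidence interval -0.21 to 0.07; adjusted p = 0.521, edgeR). BAX, the other main effector, was far more abundant, at 57.1 to 61.3 FPKM in the NC and 55.3 to 57.7 FPKM in the siEIF1 libraries. The ratio of BAX to BAK1 was 7.33 ± 0.168 in the NC group and 7.40 ± 0.0794 in the siEIF1 group (SD, n = 3).

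BCL2L11 was the 1 member that rose. It encodes BIM, a BH3-only protein that binds all the anti-apoptotic proteins above and can activate BAX and BAK directly, and it lies on chromosome 2 (111119378 to 111168444, forward strand, 4 exons). Its level was 2.37, 2.34 and 2.58 FPKM in the NC libraries and 2.89, 2.68 and 2.76 FPKM in the siEIF1 libraries. Every siEIF1 library was above every NC library, by a narrow gap between NC replicate 3 and siEIF1 replicate 2. The log2 fold change was 0.21 ± 0.066 (SE), with a 95% confidence interval of 0.07 to 0.35, an adjusted p of 0.0372 in edgeR's quasi-likelihood test and a level at 116% of NC.

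The rise of BCL2L11 was near the threshold and did not hold in every fit. DESeq2 gave an adjusted p of 0.0829, and scaling by library totals alone gave 0.0710. The adjusted p was 0.103, 0.131 and 0.0544 without NC replicates 1, 2 and 3, 0.114 and 0.0832 without siEIF1 replicates 1 and 2, and 0.0408 without siEIF1 replicate 3. Its log2 fold change stayed between 0.14 and 0.25 in all 16 alternatives. BCL2L11 shares 727 exon bases with MIR4435-2HG, a long noncoding RNA gene on the opposite strand, which had a mean of 3009 counts against 617 for BCL2L11 and a log2 fold change of 0.26 (adjusted p = 0.00576, edgeR). The libraries were strand-specific, but the strand setting of the counting is not given in the sources used here, so counts of the pair cannot be told apart with certainty.

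The 250 bases before a RefSeq start of BCL2L11, which lies inside the GENCODE gene span given above, are shown because FOXO factors, which act downstream of growth factor signalling, are known to drive this gene, and because it was the member that rose. The window is chr2:111120664-111120913 on the forward strand of GRCh38.p14 (RefSeq promoter windows, which matched 8 of the 10 genes) and overlaps no annotated exon. Capitals mark GTAAACA, searched on both strands, at positions -223 to -217 from the start.
BCL2L11 promoter: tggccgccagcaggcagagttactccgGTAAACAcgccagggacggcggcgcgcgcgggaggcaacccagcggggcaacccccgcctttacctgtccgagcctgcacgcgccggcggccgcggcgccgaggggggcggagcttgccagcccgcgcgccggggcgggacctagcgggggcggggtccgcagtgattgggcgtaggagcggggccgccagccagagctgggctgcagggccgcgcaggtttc
This motif was present in 2.98% of the 35116 promoter windows of the same length and in no window of another member. The match is a description of the letters only. The FOXO genes themselves differed in outcome: FOXO4 had a log2 fold change of 0.30 (adjusted p = 0.0223, edgeR), while FOXO1 and FOXO3 each had a log2 fold change of 0.05 and did not pass the test. The call of FOXO4 was lost in 8 of the 16 alternatives, among them those without NC replicates 1, 2 and 3 (adjusted p of 0.0554, 0.0521 and 0.0872, edgeR) and without siEIF1 replicates 2 and 3 (0.0638 and 0.0745).

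BID encodes the BH3-only protein that caspase-8 cleaves, which links death receptors to the mitochondrion, and lies on chromosome 22 (17734138 to 17774770, reverse strand, 6 exons). Its level was 4.26, 4.32 and 4.43 FPKM in the NC libraries and 4.06, 4.06 and 3.62 FPKM in the siEIF1 libraries. The groups did not overlap, yet most of the gap came from siEIF1 replicate 3, which stood at 82.8% of the NC mean in CPM against 94.8% and 97.2% for the other two. The log2 fold change was -0.13 ± 0.072 (SE; 95% confidence interval -0.28 to 0.03; adjusted p = 0.251, edgeR), and it was -0.06 without siEIF1 replicate 3. Set against MCL1, the level of BCL2L11 was 7.49% to 8.95% in the NC libraries and 9.98% to 11.1% in the siEIF1 libraries.

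**Figure D3:**
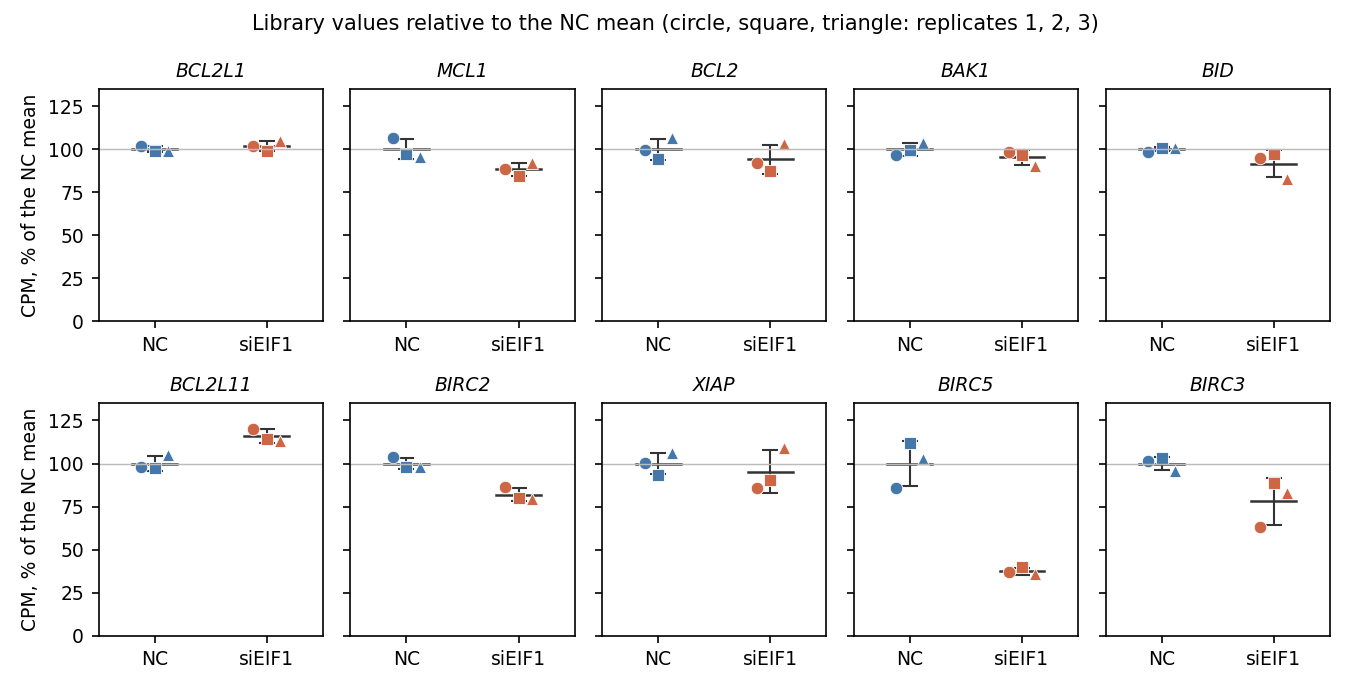
CPM of each gene in each library as a percent of its NC mean (vertical axis from 0), with the mean and SD of each group (n = 3); circles, squares and triangles are replicates 1, 2 and 3. The siEIF1 libraries lie at 35.7% to 39.7% for BIRC5, 79.5% to 86.1% for BIRC2 and 113% to 120% for BCL2L11, and siEIF1 replicate 3 lies apart from the other two for XIAP and BID.

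Among the IAP genes, BIRC2 was the most abundant, and it fell. BIRC2 encodes cIAP1, a ubiquitin ligase that acts on RIPK1 and on the kinase NIK (from MAP3K14), and it lies on chromosome 11 (102347211 to 102378670, forward strand, 9 exons). Its level was 7.67, 7.23 and 7.39 FPKM in the NC libraries and 6.32, 5.71 and 5.96 FPKM in the siEIF1 libraries. The siEIF1 libraries all lay below the NC libraries, with a gap wider than the range of either group. BIRC2 fell by 0.29 on the log2 scale (SE 0.058, 95% confidence interval -0.41 to -0.16, adjusted p = 0.00333 in edgeR's quasi-likelihood test), to 81.9% of its NC level. It passed the test in all 16 alternatives, with a log2 fold change between -0.33 and -0.26.

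BIRC3, which encodes cIAP2, is the neighbour of BIRC2 on chromosome 11 (102317484 to 102339403, forward strand, 9 exons), and 7807 bases separate the genes. It was the lowest of the 10 genes, with 47, 51 and 47 counts in the NC libraries and 34, 45 and 43 counts in the siEIF1 libraries. In FPKM this was 0.19, 0.19 and 0.18 in NC and 0.12, 0.16 and 0.16 in siEIF1. All siEIF1 values were below the NC values, and siEIF1 replicate 1 was the lowest. In CPM the coefficient of variation among the siEIF1 libraries was 17.4%, close to the 15.7% that counting error alone gives. The log2 fold change was -0.36 ± 0.209 (SE), and its 95% confidence interval of -0.81 to 0.09 held 0 as well as the value of BIRC2 (adjusted p = 0.263, edgeR). Without siEIF1 replicate 1 it was -0.22. At this depth a change of the size observed for BIRC3 did not pass the test.

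The promoters of this pair are shown side by side because the genes are close relatives with known but different regulation: BIRC3 is a classic target of NF-kB. In the BIRC3 window, chr11:102317234-102317483 (forward strand, no annotated exon), capitals mark matches on the reverse strand to the kappaB consensus, at positions -199 to -190 and -135 to -126. The BIRC2 window overlaps exons of BIRC2 itself and of another annotated gene. Only its 28 bases of chr11:102347197-102347224 around a cAMP response element are given, with TGACGTCA in capitals. This short stretch crosses the annotated start of the BIRC2 gene at 102347211, so part of it lies within the gene.
BIRC3 promoter: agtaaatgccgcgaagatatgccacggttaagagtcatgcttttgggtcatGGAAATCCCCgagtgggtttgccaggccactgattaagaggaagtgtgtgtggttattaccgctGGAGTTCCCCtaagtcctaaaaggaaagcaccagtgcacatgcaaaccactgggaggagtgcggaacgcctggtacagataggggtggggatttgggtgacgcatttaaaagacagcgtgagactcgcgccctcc
BIRC2 element: ccgggcgcgcTGACGTCAtcgtgcgtca
The kappaB consensus was found in 5.21% of the promoter windows and TGACGTCA, which reads the same on both strands, in 1.65%. Among the members with a window, BIRC3 alone held the former and BIRC2 alone the latter. These matches are descriptions and were not tested against the changes.

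XIAP, the direct inhibitor of caspases, lies on chromosome X (123859712 to 123913972, forward strand, 7 exons). Its level was 3.95, 3.65 and 4.23 FPKM in the NC libraries and 3.34, 3.44 and 4.34 FPKM in the siEIF1 libraries. The first 2 siEIF1 libraries were the lowest of all 6 and the third was the highest. XIAP had a log2 fold change of -0.07 ± 0.083 (SE; 95% confidence interval -0.25 to 0.11; adjusted p = 0.600, edgeR). In CPM the coefficient of variation among the siEIF1 libraries was 13.1%, while counting error alone gives 2.85%. Without siEIF1 replicate 3 the log2 fold change was -0.18 with an adjusted p of 0.0659 (edgeR).

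BIRC5 changed most of the 10 genes. Survivin, its product, holds the chromosomal passenger complex at the centromere in mitosis, and the transcript is known to peak when cells divide. The gene lies on chromosome 17 (78214186 to 78225636, forward strand, 4 exons). Its level was 1.88, 2.44 and 2.28 FPKM in the NC libraries and 0.81, 0.84 and 0.79 FPKM in the siEIF1 libraries, from 233, 326 and 296 counts and 118, 118 and 109 counts. The siEIF1 libraries were nearly equal, while NC replicate 1 was well below the other NC libraries and still far above every siEIF1 library. BIRC5 fell by 1.42 on the log2 scale (SE 0.123, 95% confidence interval -1.68 to -1.15, adjusted p = 4.64e-06 in edgeR's quasi-likelihood test), to 37.5% of its NC level, and 0.591% of all tested genes had a lower log2 fold change.

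The summed level of the 4 IAP genes was 13.5 to 14.1 FPKM in the NC libraries and 10.2 to 11.3 FPKM in the siEIF1 libraries. BIRC5 made up 13.7% to 18.1% of that sum in NC and 7.02% to 8.28% in siEIF1. BIRC2 stayed the largest contributor, with 52.5% to 56.0% in NC and 52.98% to 59.7% in siEIF1. An exact two-sided permutation test over the 6 libraries cannot give a p below 0.1, so no p is given for these sums and shares.

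The partners of survivin in the chromosomal passenger complex did not move as one. CDCA8, which encodes borealin, had 2.10, 2.28 and 2.37 FPKM in the NC libraries and 0.93, 0.64 and 0.80 FPKM in the siEIF1 libraries. It fell by 1.48 on the log2 scale (SE 0.146, adjusted p = 1.46e-05, edgeR). AURKB, the kinase of the complex, had 2.00, 1.92 and 1.82 FPKM in NC and 1.33, 1.14 and 1.09 FPKM in siEIF1, and fell by 0.67 on the log2 scale (SE 0.135, adjusted p = 0.00334, edgeR). INCENP, the scaffold, had 0.66, 0.64 and 0.80 FPKM in NC and 0.56, 0.52 and 0.77 FPKM in siEIF1. Its groups overlapped, and its log2 fold change was -0.16 ± 0.166 (SE; adjusted p = 0.551, edgeR). The ratio of BIRC5 to CDCA8 was 0.895 to 1.07 in the NC libraries and 0.871 to 1.31 in the siEIF1 libraries, while that of BIRC5 to AURKB was 0.940 to 1.27 in NC and 0.609 to 0.737 in siEIF1.

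**Figure D4:**
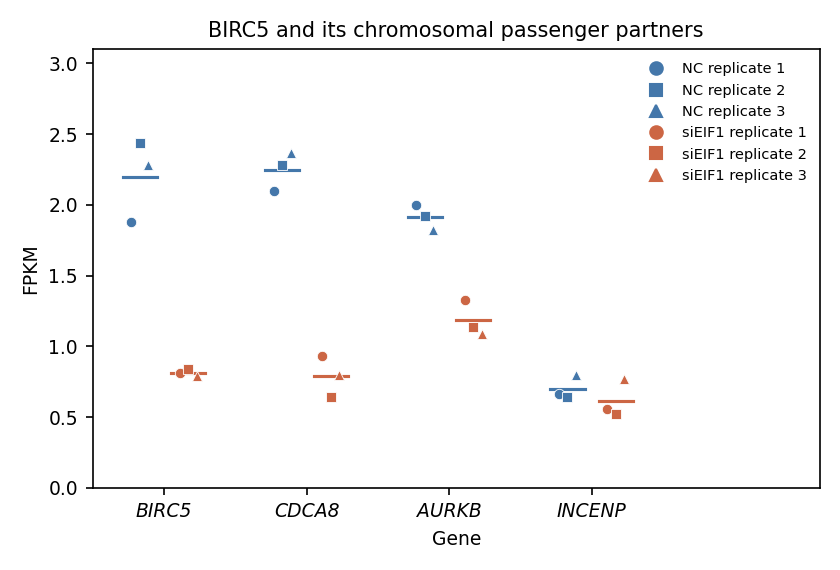
FPKM (vertical axis from 0) of BIRC5 and of the genes of its chromosomal passenger partners in each library, with a bar at each group mean (n = 3). The siEIF1 libraries lie below all NC libraries for BIRC5, CDCA8 and AURKB, and within or near the NC range for INCENP.

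Other genes of the cell cycle were lower in the same libraries. Of the 42 S phase genes tested from the published Seurat list, 38 fell and 0 rose, with a median log2 fold change of -0.998. Of the 52 G2/M genes tested from that source, with BIRC5 itself left out, 45 fell and 0 rose, with a median of -0.986. BIRC5 was thus not the gene with the lowest log2 fold change among them, since 13 of the S phase and 19 of the G2/M genes had a lower one. E2F1, a factor known to drive genes of the G1 to S transition, fell by 1.84 on the log2 scale (SE 0.116, adjusted p = 5e-07, edgeR). The part of the cell cycle genes in the level of BIRC5 was not tested.

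Beyond the 10 members, the wider apoptosis genes moved in both directions and mostly by small amounts. Of 106 genes tested across the lists of the pathway, each counted once, 35 passed the test (33.0%), 20 higher and 15 lower, with a median log2 fold change of -0.0060, while over all tested genes 20.6% passed, 10.2% higher and 10.4% lower. Of these 106 genes, only E2F1 and IL6 passed the fold limits as well. The lists include p53 targets, some of them also in other lists, and these passed more often. Of 27 p53 targets tested, 15 passed (55.6%), 11 higher and 4 lower, with a median log2 fold change of 0.097. PERP rose by 0.62 and BTG2 by 0.49 on the log2 scale, while SESN2 fell by 0.56 (adjusted p = 2.92e-06, 0.000114 and 0.000194, edgeR). The part of p53 in these changes was not tested. In the other 13 BCL2 family genes tested, 3 rose and 1 fell (30.8%). PMAIP1, which encodes NOXA, the BH3-only partner of MCL1, had 3.49, 3.34 and 3.44 FPKM in the NC libraries and 2.37, 1.85 and 2.13 FPKM in the siEIF1 libraries. It fell by 0.67 on the log2 scale (SE 0.107, adjusted p = 0.000684, edgeR). BBC3, which encodes PUMA, rose from 8.39, 9.18 and 9.82 FPKM in the NC libraries to 11.1, 10.7 and 10.6 FPKM in the siEIF1 libraries, with a log2 fold change of 0.27 (SE 0.063, adjusted p = 0.00934, edgeR). The BH3-only genes BCL2L11, BBC3 and PMAIP1 therefore did not share a direction. BCL2L13 also rose, with a log2 fold change of 0.23 (adjusted p = 0.00259, edgeR), and passed in all 16 alternatives. BOK had a log2 fold change of 0.24 (adjusted p = 0.0349, edgeR), a call lost in 8 of the 16, among them those without NC replicates 1 and 3 (0.139 and 0.0795) and without siEIF1 replicates 1 and 2 (0.0612 and 0.156). BAX, at a log2 fold change of -0.06, did not pass (adjusted p = 0.464, edgeR).

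Neither of the other IAP genes tested passed, with a log2 fold change of 0.03 for BIRC6 and -0.28 for NAIP, the latter at 0.04 to 0.06 FPKM. Of 9 genes for partners and antagonists of the IAPs, 2 rose and 0 fell, a share (22.2%) near that over all tested genes. SEPTIN4, whose isoform ARTS binds XIAP, had 0.42, 0.44 and 0.62 FPKM in NC and 0.80, 0.95 and 0.78 FPKM in siEIF1 (log2 fold change 0.79, SE 0.141, adjusted p = 0.00156, edgeR). TAB1, an adaptor of the kinase TAK1 that XIAP binds, had a log2 fold change of 0.27 (adjusted p = 0.0124, edgeR, and 0.0617 without NC replicate 3). HTRA2, a mitochondrial protease that antagonises IAPs, had a log2 fold change of -0.02 (adjusted p = 0.883, edgeR). DIABLO, the gene of the IAP antagonist SMAC, had 26 to 75 counts, but an overlapping gene model took 1477 to 1642 counts, so its value is uncertain.

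Of 10 genes of mitochondrial release and the apoptosome, CYCS, which encodes cytochrome c, fell by 0.25 on the log2 scale (adjusted p = 0.00531, edgeR), and 0 rose. CASP2, which encodes a caspase, fell by 0.29 on the log2 scale (adjusted p = 0.00923, edgeR). Of 9 death receptor and adaptor genes tested, TNFRSF10B fell by 0.22 on the log2 scale (adjusted p = 0.00958, edgeR) and 0 rose. Of 10 genes that govern turnover of MCL1 and other members, such as the ubiquitin ligase genes FBXW7 and HUWE1 and the deubiquitinase gene USP9X, 0 passed the test. The smallest p among them was that of BTRC (log2 fold change 0.16, adjusted p = 0.0585, edgeR).

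Of 12 genes for transcription factors that act on the members, 3 rose and 4 fell. DDIT3, which encodes the stress factor CHOP, fell by 0.84 on the log2 scale from a mean of 78.8 to 43.6 FPKM (adjusted p = 8.97e-07, edgeR). JUN fell by 0.37 and HIF1A by 0.21 on the log2 scale, the latter with an adjusted p of 0.0136 (edgeR) that was 0.0593 and 0.0721 without NC replicates 2 and 3 and 0.0719 without siEIF1 replicate 2, and STAT3 rose with a log2 fold change of 0.37. Of 14 NF-kB targets tested besides BIRC3, 1 rose and 5 fell. IL6 fell by 1.15 and TNFAIP3 by 0.75 on the log2 scale. TNFAIP3 had an adjusted p of 0.0128 (edgeR), which became 0.0552 when NC replicate 2 was left out and 0.0592 when siEIF1 replicate 2 was. RELA and NFKB1, genes of NF-kB subunits, had log2 fold changes of -0.05 and 0.04 and did not pass.

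**Figure D5:**
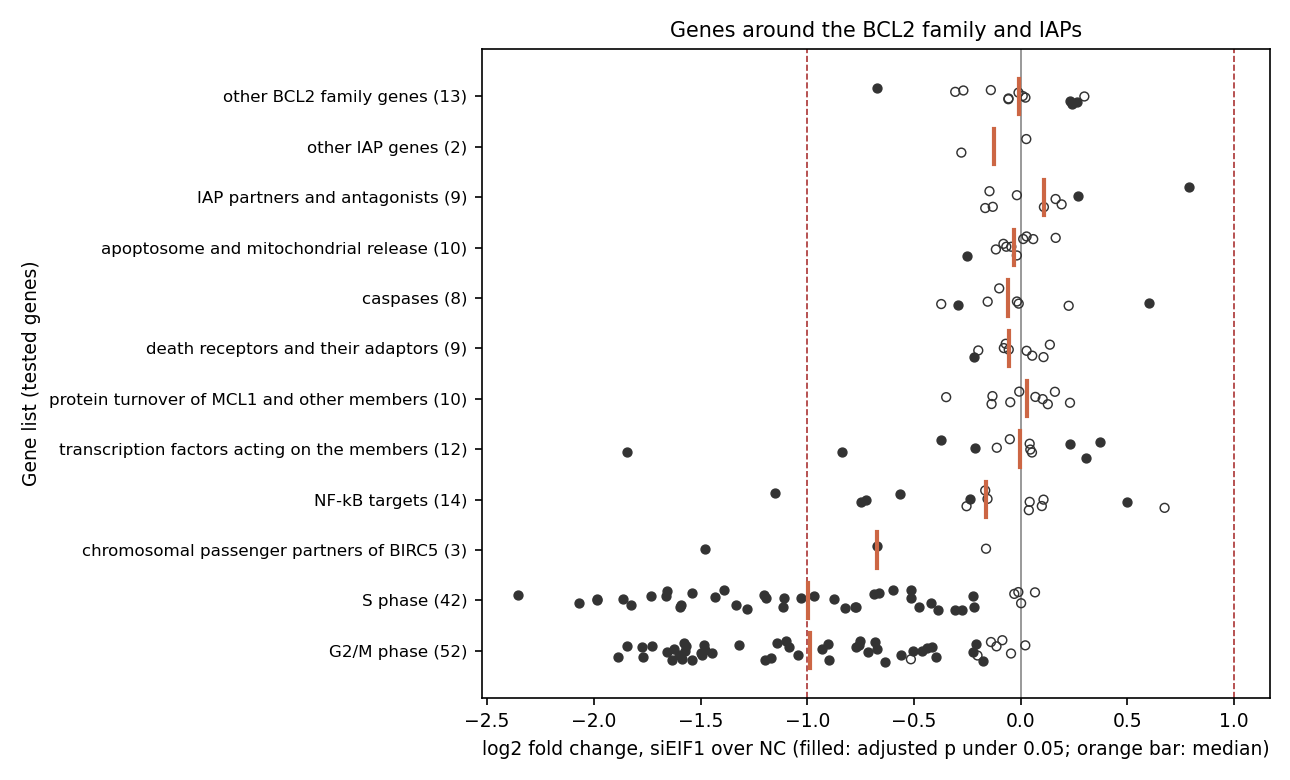
Log2 fold change of each tested gene (horizontal axis) in the wider lists, with the number of tested genes in parentheses. The p53 targets and the cell type markers are not shown. Points are filled where the adjusted p was under 0.05, an orange bar marks the list's median, and vertical jitter has no meaning. The apoptosis lists shown scatter around 0, while the S phase and G2/M lists have medians of -0.998 and -0.986.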

How the data were processed

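The 6 libraries were assigned by title. The authors cleaned the reads with FASTX-Toolkit and mapped them to GRCh38 with HISAT2 (submitters' notes and methods). The deposited counts are uniquely mapped reads per gene with no normalization. The deposited FPKM values divide fragments by transcript length and mapped fragments. They are rounded to 2 decimals and cover 30275 of 30618 genes. The counting program, its strand setting and the annotation release are not given in the sources used here.

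After a filter on low counts (filterByExpr), 16749 genes were fitted with edgeR 4.0.16 in R 4.3.3 (TMM, quasi-likelihood test, Benjamini-Hochberg adjustment over all tested genes, without a replicate block). The standard error was taken from the quasi-likelihood F statistic. A gene passed at an adjusted p under 0.05 and was called with a fold change above 2 or below 0.5 as well. Levels are FPKM, and CPM values use TMM-scaled totals. At 26499929 to 31431479 counts a library, counting error is small for all members but BIRC3, BCL2 and BIRC5. Fits were tested on simulated data. Alternatives were RLE, upper-quartile or no scaling beyond totals, no filter or at least 10 counts in every library, DESeq2 1.42.0, limma 3.58.1 on log2(FPKM + 1) or log2(FPKM + 0.1), the replicate number as a block, and each library left out.

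The members and the wider lists were chosen with earlier results of these data known. The named genes are all members, EIF1, the passenger partners, each called gene of a wider list and up to 3 with the smallest p and 2 with the highest mean FPKM. BOK, DIABLO, FOXO1, FOXO3, FOXO4, STAT3, RELA and NFKB1 were named after their values were seen, and the 3 promoter motifs were picked after the members' results were known. Coordinates come from GENCODE release 44 (GRCh38), and promoters from RefSeq (GRCh38.p14). Gene counts pool splice isoforms, so BCL-XL and BCL-XS, or the long and short forms of MCL1, were not separated. A few listed genes are not reported here by name.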

Additional observations from a re-analysis of the deposited data

How the results depend on the processing

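No member changed direction under any of the 16 alternatives. BIRC5 and BIRC2 passed the test in 16 of them, MCL1 in 8, BCL2L11 in 5 and the other 6 members in 0. The number of members that rose, 1 in the main analysis, was 0 with library totals only, with no filter on low counts, with DESeq2 and with limma on log2(FPKM + 1), on log2(FPKM + 0.1) and on log2(FPKM + 1) with no filter, and ranged from 0 to 1 when 1 library was left out. The cause was not tested. The number of members called, 1 in the main analysis, was 0 with limma on log2(FPKM + 1) with or without the filter, a scale on which the pseudocount of 1 shrinks the change of BIRC5 to -0.82. On that scale without the filter, where 30259 genes were tested, 7 apoptosis genes rose and 6 fell, against 20 and 15. Over all tested genes, 286 were called in the main analysis, 20 with limma on log2(FPKM + 1) and 164 on log2(FPKM + 0.1); 3446 passed the test, against 1414 with limma on log2(FPKM + 1) without the filter and 2242 without siEIF1 replicate 2.

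With the replicate number as a block, the adjusted p was 0.0106 for MCL1, 0.0315 for BCL2L11 and 0.000858 for BIRC2, and no call of a member changed. Over all tested genes, 4277 passed the test with this block, against 3446 without it. Same-numbered libraries correlated at 0.149, 0.0946 and 0.128 in their deviations from the group means, so they were not taken as pairs. Each NC library nevertheless correlated best with the siEIF1 library of its own number.

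With 3 libraries a group and 44.5 counts for BIRC3 on average, only a large change of this gene could have passed. DESeq2 leaves some low genes without an adjusted p, and 15125 genes have one.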
